A study of Mus musculus with 6 samples.

Results

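The interleukin-1 and interleukin-18 family was followed in RNA of 6 mouse colonic tumors induced with AOM/DSS, in which the carcinogen azoxymethane is combined with dextran sulfate sodium, a polymer that damages the gut lining. The 10 genes were taken by name from the 24797 genes of the deposited count table: the ligands Il1a, Il1b and Il18, the receptor antagonist Il1rn, the receptor chains Il1r1, Il1r2, Il1rap, Il18r1 and Il18rap, and the interleukin-18 binding protein gene Il18bp. All 10 had a row and passed the filter on low counts that left 18756 genes. 3 samples came from mice labelled GRdim, whose glucocorticoid receptor is deficient in dimerization, and 3 from mice labelled GRwt, with the wildtype receptor. All 6 samples share the tumor induction, so there is no untreated or tumor-free tissue among them. The labels give no strain background, sex, age or number of animals, and leave unsaid whether each sample is a mouse of its own. Errors and p-values therefore cover only how these 6 samples vary, which may be technical. The family was chosen by measured values, namely the log2 fold changes of this same comparison, in which Il1a and Il1b were lower in GRdim tumors. The genotype differences of the members are therefore described, with standard errors, and not offered as tests.

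Interleukin-1 alpha and interleukin-1 beta are early inflammatory cytokines that act through 1 shared receptor. Il1r1 encodes the signalling chain, and Il1rap the accessory chain that joins it once a ligand has bound. The receptor antagonist encoded by Il1rn occupies Il1r1 without signalling, and Il1r2 encodes a decoy receptor that lacks the cytoplasmic signalling domain. Interleukin-18 is made as a precursor, in the gut largely by epithelial cells, is cut by caspase-1 as interleukin-1 beta is, and signals through the Il18r1 and Il18rap chains, while Il18bp encodes a secreted protein that traps it. Glucocorticoids, acting through the receptor encoded by Nr3c1, are long known to restrain interleukin-1 production by myeloid cells.

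Il1a and Il1b lie next to each other on the minus strand of chromosome 2 and are the members with the largest genotype difference, while Il1rn lies on the plus strand of the same chromosome and differed little. The 250 bases before their start sites are shown to let the pair be set against the antagonist. The sequences are RefSeq windows on build GRCm38.p6, 5′ to 3′ in the direction of transcription, with the positions chr2:129309973-129310222 (Il1a, minus strand), chr2:129371140-129371389 (Il1b, minus strand), and chr2:24336610-24336859 and chr2:24345121-24345370 for an upstream and a downstream start of Il1rn (plus strand). Capitals mark matches to the motifs named after the sequences.
Il1a: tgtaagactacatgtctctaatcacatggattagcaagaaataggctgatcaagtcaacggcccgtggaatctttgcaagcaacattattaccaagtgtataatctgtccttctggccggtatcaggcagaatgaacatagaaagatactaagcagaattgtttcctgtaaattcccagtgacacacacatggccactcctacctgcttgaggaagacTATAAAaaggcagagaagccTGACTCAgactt
Il1b: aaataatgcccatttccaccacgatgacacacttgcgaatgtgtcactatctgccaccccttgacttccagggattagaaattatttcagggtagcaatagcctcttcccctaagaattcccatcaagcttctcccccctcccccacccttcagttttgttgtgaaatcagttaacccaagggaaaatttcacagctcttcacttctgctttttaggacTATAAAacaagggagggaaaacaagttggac
Il1rn, upstream start: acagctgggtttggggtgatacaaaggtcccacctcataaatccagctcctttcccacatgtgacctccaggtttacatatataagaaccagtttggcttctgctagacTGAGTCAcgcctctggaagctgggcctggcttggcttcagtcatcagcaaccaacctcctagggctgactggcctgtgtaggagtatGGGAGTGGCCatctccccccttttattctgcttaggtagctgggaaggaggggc
Il1rn, downstream start: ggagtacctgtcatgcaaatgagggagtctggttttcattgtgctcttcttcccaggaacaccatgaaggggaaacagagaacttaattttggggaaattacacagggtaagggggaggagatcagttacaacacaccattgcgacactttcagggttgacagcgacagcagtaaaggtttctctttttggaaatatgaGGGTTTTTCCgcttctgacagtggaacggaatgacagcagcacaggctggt
The TATA box was searched as TATAAA on the coding strand. The motifs of AP-1 (TGANTCA), NF-kB (GGG and CC with any 5 bases between them), C/EBP (TTGCNNAA) and the palindrome bound by the glucocorticoid receptor dimer (GNACA and TGTNC with any 3 bases between them) were searched on both strands, with overlapping matches counted. Il1a and Il1b each held TATAAA, with its first base at -32 and -31, and 7.59% of all 32841 windows of this length held it. Il1a also held an AP-1 match at -12, where 6.75% of all windows held one. The upstream Il1rn window held an AP-1 match at -141 and an NF-kB match at -54, and the downstream one an NF-kB match at -51, where 45.8% of all windows held an NF-kB match. Another downstream Il1rn window, chr2:24345041-24345290, overlaps the one shown and held no match to any of these motifs. C/EBP matches stood in 9.57% of all windows and receptor palindromes in 0.387%, and none of the Il1a, Il1b and Il1rn windows shown held either. A match is a description of these letters and not a bound site.

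Library totals ran from 21132981 to 36222351 counts. The names of GRdim replicate 1 and GRwt replicate 3 carry a T that the labels do not explain. Rn18s-rs5, a ribosomal RNA gene, made up 2.05% and 2.51% of the counts of these libraries and at most 0.0725% in each of the other 4. These libraries also lay together on the first principal component of log2 CPM, the axis of largest variation, which held 37.8% of the variance. They stood there at -57.5 and -52.64, and the other 4 between -3.32 and 53.64. A number is shared by the names of GRdim replicates 1 and 3, which leaves unknown whether 1 mouse gave both. The Y-linked transcript Ddx3y stood at 62.4 CPM in GRdim replicate 2 and at no more than 0.71 CPM in each other library, and Xist was lowest in GRdim replicate 2 (0.267 CPM), so sex differed within GRdim. Squamous epithelial markers summed to 940 CPM in GRdim replicate 3 and to between 105 and 222 CPM in the other 5 libraries. CPM express each count relative to the TMM-scaled total of its library, except for Xist and Ddx3y, where the plain total was used. Markers of colon epithelium summed to 16986 to 38084 CPM in GRdim and 27292 to 34450 CPM in GRwt libraries, and the tissue label thus has its markers in every library. Nr3c1 itself stood at 80.5, 49.2 and 49.3 CPM in GRdim replicates 1, 2 and 3 and at 43.9, 57.4 and 64.5 CPM in GRwt replicates 1, 2 and 3. The dim allele is known as a point mutation, and a transcript level cannot tell it from the wildtype allele.

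By the fit, Il1a was 4.04 times lower and Il1b 2.97 times lower in GRdim tumors, with every GRdim library below every GRwt library. The antagonist, both receptor chains, the decoy and all 4 interleukin-18 genes lay at overlapping levels in the genotypes. Il1a (ENSMUSG00000027399, chromosome 2, 129141530 to 129151892, GRCm39) stood at 3.18, 2.69 and 1.14 CPM in GRdim replicates 1, 2 and 3 and at 9.85, 7.43 and 11.1 CPM in GRwt replicates 1, 2 and 3. The groups did not overlap: the highest GRdim library held less than the lowest GRwt library. The lowest value rests on 31 reads, with an exact 95% interval of 0.774 to 1.62 CPM that covers counting error only. Il1a had a log2 fold change of -2.01 and a standard error of 0.41, with GRdim over GRwt here and below. Il1b (ENSMUSG00000027398, chromosome 2, 129206490 to 129213059) stood at 15.0, 8.81 and 9.33 CPM in GRdim replicates 1, 2 and 3 and at 34.3, 22.9 and 41.0 CPM in GRwt replicates 1, 2 and 3, again without overlap. Its log2 fold change was -1.57 with a standard error of 0.30. In both genotypes the library with a T in its name was the highest for both ligands. Between those 2 libraries alone Il1b was 15.0 CPM in GRdim against 41.0 CPM in GRwt, and among the other 4 it was 8.81 and 9.33 CPM in GRdim against 34.3 and 22.9 CPM in GRwt. With the T as a covariate the log2 fold change of Il1b was -1.59 and its standard error 0.19. In bulk tissue, fewer cells that make a transcript and less of it per cell cannot be told apart.

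**Figure D1:**
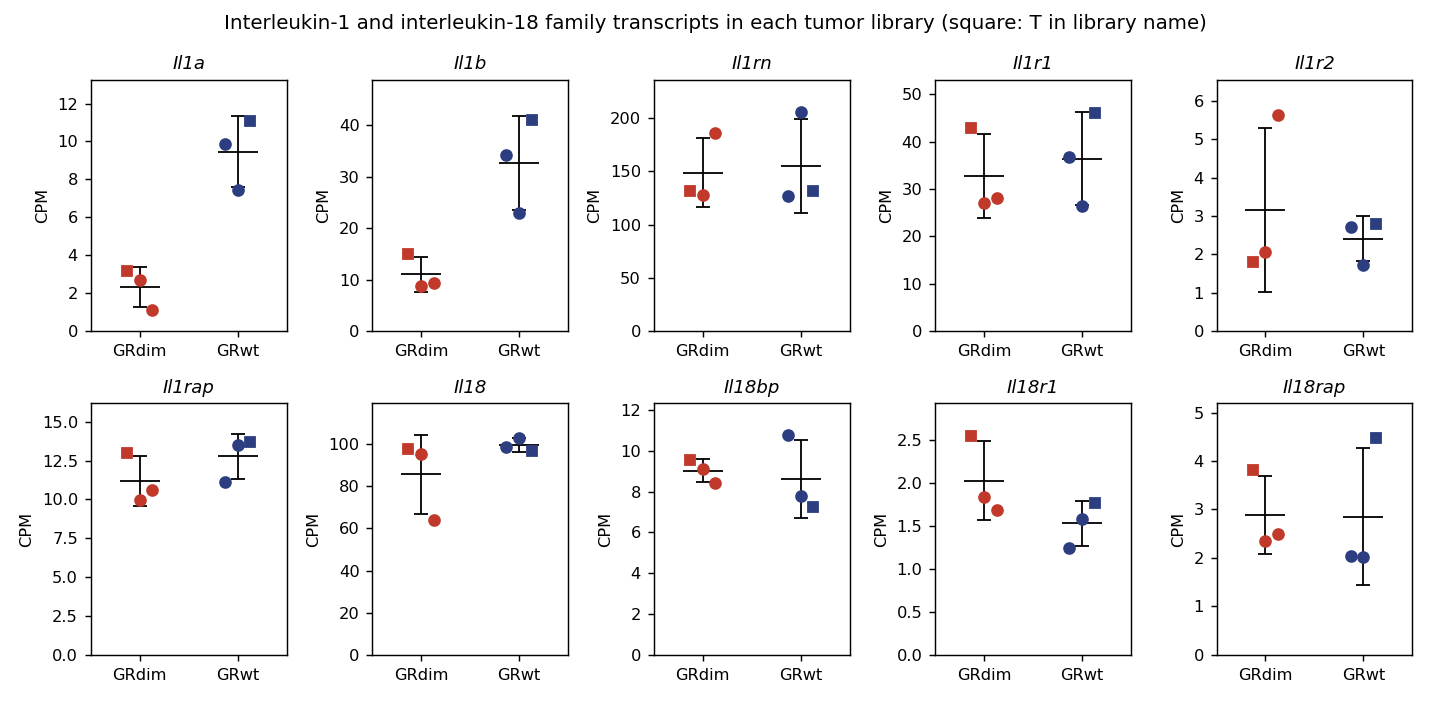
CPM of each of the 10 members in each library, with GRdim left of GRwt. Points are libraries (squares have a T in the library name), and the bars give the mean and SD of 3 libraries. Il1a and Il1b alone show no overlap, with GRdim at up to 3.18 and 15.0 CPM and GRwt from 7.43 and 22.9 CPM.

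With edgeR's quasi-likelihood test and adjustment over all genes tested, 0 of the 10 members were called in either direction, as were 0 of all genes (0%). At an unadjusted p under 0.05, 2 members were lower and 0 higher, beside 1.09% of all genes tested that were lower and 1.79% higher (2.88% in all). Without overlap between genotypes 2 members were lower and 0 higher, beside 3.57% of all genes lower and 2.98% higher (6.55% in all). In both counts the 2 are Il1a and Il1b, whose difference brought the family forward, so nothing is read from them. DESeq2, the tool named in the submitters' processing notes, called these same 2 members as lower with adjustment over all genes, in a fit where it called 0.132% of genes as lower and 0.0573% as higher. The median log2 fold change over the 10 members was -0.11, with 6 below and 4 above 0, where 49.4% of all genes tested lay below 0 with a median of 0.004.

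Il1rn (ENSMUSG00000026981, chromosome 2, 24226865 to 24241506), the receptor antagonist, did not follow the ligands. It stood at 132, 128 and 186 CPM in GRdim replicates 1, 2 and 3 and at 127, 206 and 132 CPM in GRwt replicates 1, 2 and 3. One library of each genotype was high, GRdim replicate 3 and GRwt replicate 2, and the other 4 lay between 127 and 132 CPM. These are also the highest libraries of their genotypes for the squamous markers, at 940 and 222 CPM, and the part of those cells in the Il1rn level was not tested. The log2 fold change was -0.06 with a standard error of 0.25, so an interval of about 2 standard errors spans changes of either sign. RefSeq lists 3 start sites for Il1rn, whose products include secreted and intracellular forms, and a count per gene does not separate them.

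The signalling receptor genes were likewise close between genotypes. Il1r1 (ENSMUSG00000026072, chromosome 1, 40264240 to 40356417) stood at 43.0, 27.1 and 28.2 CPM in GRdim replicates 1, 2 and 3 and at 36.8, 26.4 and 46.1 CPM in GRwt replicates 1, 2 and 3. The library with a T in its name was the highest of each genotype. The log2 fold change was -0.16 with a standard error of 0.26. Il1rap (ENSMUSG00000022514, chromosome 16, 26400454 to 26548867) varied least of all members, with 13, 9.97 and 10.6 CPM in the GRdim and 11.1, 13.5 and 13.7 CPM in the GRwt libraries in the order of their replicates. The highest of its 6 values was 1.38 times the lowest, and its log2 fold change was -0.19 with a standard error of 0.22. The decoy receptor gene Il1r2 (ENSMUSG00000026073, chromosome 1, 40113239 to 40164391) stood at 1.80, 2.07 and 5.62 CPM in GRdim replicates 1, 2 and 3 and at 2.71, 1.73 and 2.79 CPM in GRwt replicates 1, 2 and 3. GRdim replicate 3, the library with the high squamous marker sum, stood apart. The log2 fold change of Il1r2 was 0.38 with a standard error of 0.50, and -0.33 without GRdim replicate 3.

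Il18 (ENSMUSG00000039217, chromosome 9, 50466127 to 50493140) was nearly constant in 5 of the 6 libraries. It stood at 97.6, 95.5 and 64.1 CPM in GRdim replicates 1, 2 and 3 and at 98.8, 103 and 96.6 CPM in GRwt replicates 1, 2 and 3. The low value again belonged to GRdim replicate 3, in which Muc2, the gene of the goblet cell mucin and the most abundant of the colon epithelial markers, stood at 1462 CPM against between 5939 and 24954 CPM in the other 5 libraries. With Muc2 the sum of the colon epithelial markers was lowest in this library, at 16986 CPM. Without Muc2, a choice made after the values were seen, the sum was 15524 CPM in GRdim replicate 3 and 13043 to 19981 CPM in the other 5. Krt19, an epithelial keratin gene, stood at 3530 CPM there and at 2512 to 3959 CPM in the other 5. The part of epithelial content in the Il18 level was not tested. The log2 fold change was -0.21 with a standard error of 0.20, and -0.05 without GRdim replicate 3. Il18bp (ENSMUSG00000070427, chromosome 7, 101664092 to 101667897) stood at 9.55, 9.12 and 8.41 CPM in GRdim replicates 1, 2 and 3 and at 10.8, 7.78 and 7.27 CPM in GRwt replicates 1, 2 and 3, with a log2 fold change of 0.07 and a standard error of 0.25.

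Both chains of the interleukin-18 receptor were scarce. Il18r1 (ENSMUSG00000026070, chromosome 1, 40504712 to 40540014) stood at 2.55, 1.84 and 1.69 CPM in GRdim replicates 1, 2 and 3 and at 1.25, 1.58 and 1.77 CPM in GRwt replicates 1, 2 and 3, from 31 to 68 reads a library. Its ranges overlapped between 1.69 and 1.77 CPM, and the log2 fold change was 0.40 with a standard error of 0.37. Il18rap (ENSMUSG00000026068, chromosome 1, 40554522 to 40590865) stood at 3.82, 2.35 and 2.50 CPM in GRdim replicates 1, 2 and 3 and at 2.05, 2.03 and 4.48 CPM in GRwt replicates 1, 2 and 3. Here the 2 libraries with a T in their names were the highest of all 6 and the ranges of the genotypes overlapped, with a log2 fold change of 0.01 and a standard error of 0.43.

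The levels of the 10 genes were ordered per kb of exon, with exon lengths from GENCODE M21. Il18 was the most abundant, at 83.2 ± 18.2 CPM per kb in GRdim and 96.5 ± 3.22 CPM per kb in GRwt tumors (mean ± SD, n = 3 per genotype). Il1rn followed at 26.8 ± 5.85 CPM per kb in GRdim and 28.0 ± 8.06 CPM per kb in GRwt tumors, with no overlap between the 2 genes. Il1b came next, at 5.80 ± 1.80 CPM per kb in GRdim and 17.2 ± 4.79 CPM per kb in GRwt tumors, and Il1r1 after it, at 5.14 ± 1.4 and 5.73 ± 1.55 CPM per kb. Within each of the 6 libraries Il1b lay above Il1r1, although the ranges of the 2 genes overlapped. Il1a and Il18bp could not be ordered, since Il1a was higher in 3 of 6 libraries: it stood at 1.18 ± 0.540 CPM per kb in GRdim and 4.78 ± 0.937 CPM per kb in GRwt tumors, and Il18bp at 2.98 ± 0.190 and 2.85 ± 0.631 CPM per kb. Il1r2, at 0.906 to 2.95 CPM per kb, and Il1rap, at 0.878 to 1.21 CPM per kb, had overlapping ranges, as Il18rap and Il18r1 had below them, between 0.259 and 0.663 CPM per kb.

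**Figure D2:**
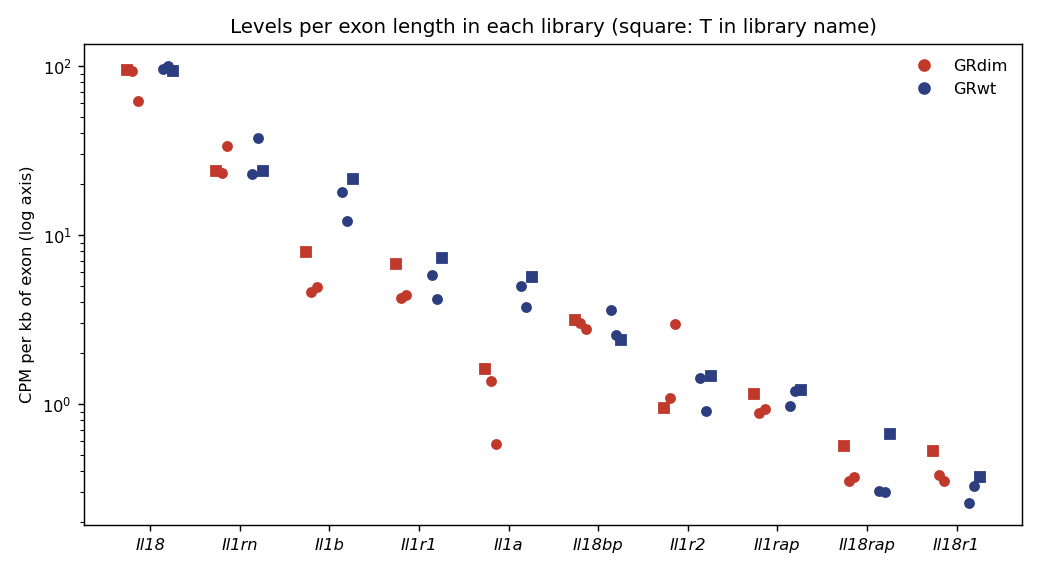
CPM per kb of exon on a log axis for the 10 members in order of their mean, with GRdim left of GRwt for each gene. Each point is 1 library. Il18 lies highest, from 62.2 CPM per kb upwards, and Il18r1 lowest, at 0.259 to 0.528 CPM per kb.

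Antagonist and ligand were also set against each other within each library, where the scaling between libraries has no part. The ratio of Il1rn to Il1b counts, not corrected for length, was 8.77, 14.5 and 19.9 in GRdim replicates 1, 2 and 3 and 3.69, 9.0 and 3.21 in GRwt replicates 1, 2 and 3. The ranges met, since GRwt replicate 2 lay just above GRdim replicate 1. The difference of the mean log2 ratios was 1.52, and it lay between 1.24 and 1.98 with any 1 library left out. For Il1rn to Il1a the ratio was 41.4, 47.5 and 163 in GRdim and 12.9, 27.8 and 11.9 in GRwt replicates 1, 2 and 3, without overlap. The decoy Il1r2 stood to Il1r1 at 0.0418, 0.0764 and 0.199 in GRdim and 0.0735, 0.0655 and 0.0605 in GRwt replicates 1, 2 and 3. Its log2 difference of 0.38 became -0.23 without GRdim replicate 3. The ratio of Il18bp to Il18 was 0.0978, 0.0955 and 0.131 in GRdim and 0.109, 0.0754 and 0.0752 in GRwt replicates 1, 2 and 3, with a log2 difference of 0.33. All 4 ratios are built from the members and are descriptions.

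**Figure D3:**
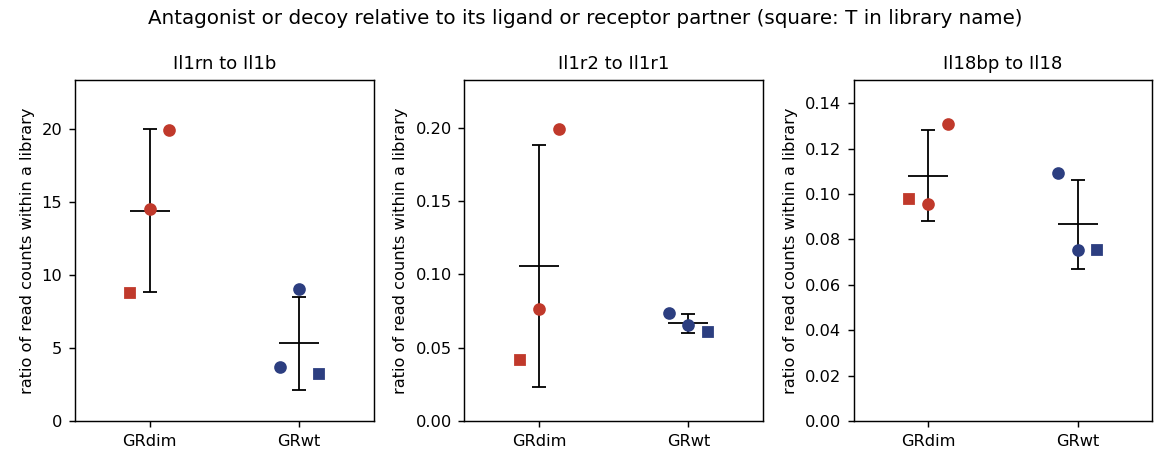
Ratio of read counts of 2 genes within each library, with GRdim left of GRwt (points are libraries, bars mean and SD of 3). Il1rn to Il1b ran from 8.77 to 19.9 in GRdim and from 3.21 to 9.0 in GRwt, while the other 2 ratios overlapped more widely.

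Around the members, 74 further genes of the pathway were listed in 5 groups, of which 69 had a row in the table used here and 64 were tested. With edgeR 0 of the 64 were called over all genes tested, where 0% of all genes were. At an unadjusted p under 0.05, 17 were lower and 0 higher, beside 1.09% and 1.79% of all genes. The lists rest on pathway knowledge but were drawn up with earlier results of these samples known.

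Genes that interleukin-1 commonly induces were the group with most differences. In GRdim tumors 18 of the 19 tested were lower, 11 with an unadjusted p under 0.05 and 10 without overlap, beside 3.57% of all genes lower without overlap, and 1 was higher. The median log2 fold change was -1.45. Cxcl1, a neutrophil chemoattractant, stood at 6.18, 5.89 and 7.05 CPM in GRdim replicates 1, 2 and 3 and at 19.0, 14.4 and 21.9 CPM in GRwt replicates 1, 2 and 3. Cxcl3 and Cxcl2, chemokines of the same kind, had log2 fold changes of -2.11 ± 0.42 and -1.50 ± 0.32 (± SE), and Il11, an interleukin-6 family cytokine, -2.17 ± 0.46. These 4 have the smallest p of the group and did not pass with edgeR. DESeq2 called 11 of the pathway genes as lower, 9 of them in this group: besides these 4 they were Ptgs2, Mmp10, Mmp13, Lcn2 and Saa3, named after their values were seen.

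Differences in the receptor's signalling chain were small. None of its 21 genes reached an unadjusted p under 0.05 with edgeR, all 21 had a log2 fold change smaller than 0.5 in size, and the median was -0.02, with 11 lower and 10 higher. The smallest p belonged to Tollip, an adaptor that dampens the pathway, at 77.0 ± 5.07 CPM in GRdim and 66.4 ± 7.50 CPM in GRwt tumors (mean ± SD, n = 3 per genotype), followed by Irak3, an inhibitory kinase family member, at 7.83 ± 1.99 and 9.83 ± 1.23 CPM. Neither passed, nor did Ube2n, a ubiquitin-conjugating enzyme, or the NF-kB subunit gene Nfkb1, with log2 fold changes of -0.14 ± 0.15 and 0.16 ± 0.19 (± SE).

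Inflammasome and processing genes were lower in 11 of 12 cases, 3 with an unadjusted p under 0.05, beside 49.4% of all genes below 0 and 1.09% lower at that p. Their median was -0.20, and 11 of the 12 had a log2 fold change smaller than 0.5 in size. Nlrp3, the sensor of the inflammasome that activates caspase-1, stood at 2.21, 1.36 and 0.955 CPM in GRdim replicates 1, 2 and 3 and at 3.04, 2.7 and 3.46 CPM in GRwt replicates 1, 2 and 3, without overlap. Casp4 (which encodes caspase-11) and Casp8 had log2 fold changes of -0.41 ± 0.17 and -0.39 ± 0.17 (± SE). Casp1, whose product cuts both precursors, stood at 94.2 ± 16.5 CPM in GRdim and 112 ± 12.7 CPM in GRwt tumors, with overlap. None of these 4 passed.

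Among 6 tested genes of the rest of the interleukin-1 family 4 were lower and 2 higher. Il33, an alarmin of this family, stood at 20.4, 13.9 and 14.8 CPM in GRdim replicates 1, 2 and 3 and at 40.5, 36.8 and 43.1 CPM in GRwt replicates 1, 2 and 3. Its receptor gene Il1rl1 lies in the same stretch of chromosome 1 as Il1r1, Il1r2 and the interleukin-18 receptor genes, whose ranges overlapped between genotypes, and its own ranges did not overlap: it stood at 79.9, 75.1 and 41.9 CPM in GRdim and at 152, 165 and 249 CPM in GRwt replicates 1, 2 and 3. Both were called by DESeq2 and not by edgeR. Il36b and the interleukin-36 receptor gene Il1rl2, also in that stretch, had log2 fold changes of 1.20 ± 0.91 and 0.43 ± 0.36 (± SE) and did not pass. Il36b was scarce, at 0.0374, 0.907 and 1.1 CPM in GRdim and 0.208, 0.254 and 0.415 CPM in GRwt replicates 1, 2 and 3. Of the 6 tested genes of the interleukin-18 and interferon-gamma axis 1 was lower and 5 were higher, where 49.4% of all genes lay below 0. Ifng, the interferon-gamma gene, had no row in the table used here. Cxcl9, an interferon-gamma induced chemokine, stood at 6.25, 3.63 and 2.79 CPM in GRdim and 12.8, 6.41 and 8.29 CPM in GRwt replicates 1, 2 and 3. Il12a, Tbx21 and Il12rb1, which encode an interleukin-12 subunit, a regulator of type 1 T cells and an interleukin-12 receptor chain, had log2 fold changes of 1.08 ± 0.76, 0.94 ± 0.71 and 0.37 ± 0.43. None of these 4 passed. Il12a, Tbx21 and Il12rb1 were scarce, at 0.238 to 1.76, 0.0595 to 0.538 and 0.636 to 1.21 CPM across libraries, and overlapped between genotypes.

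**Figure D4:**
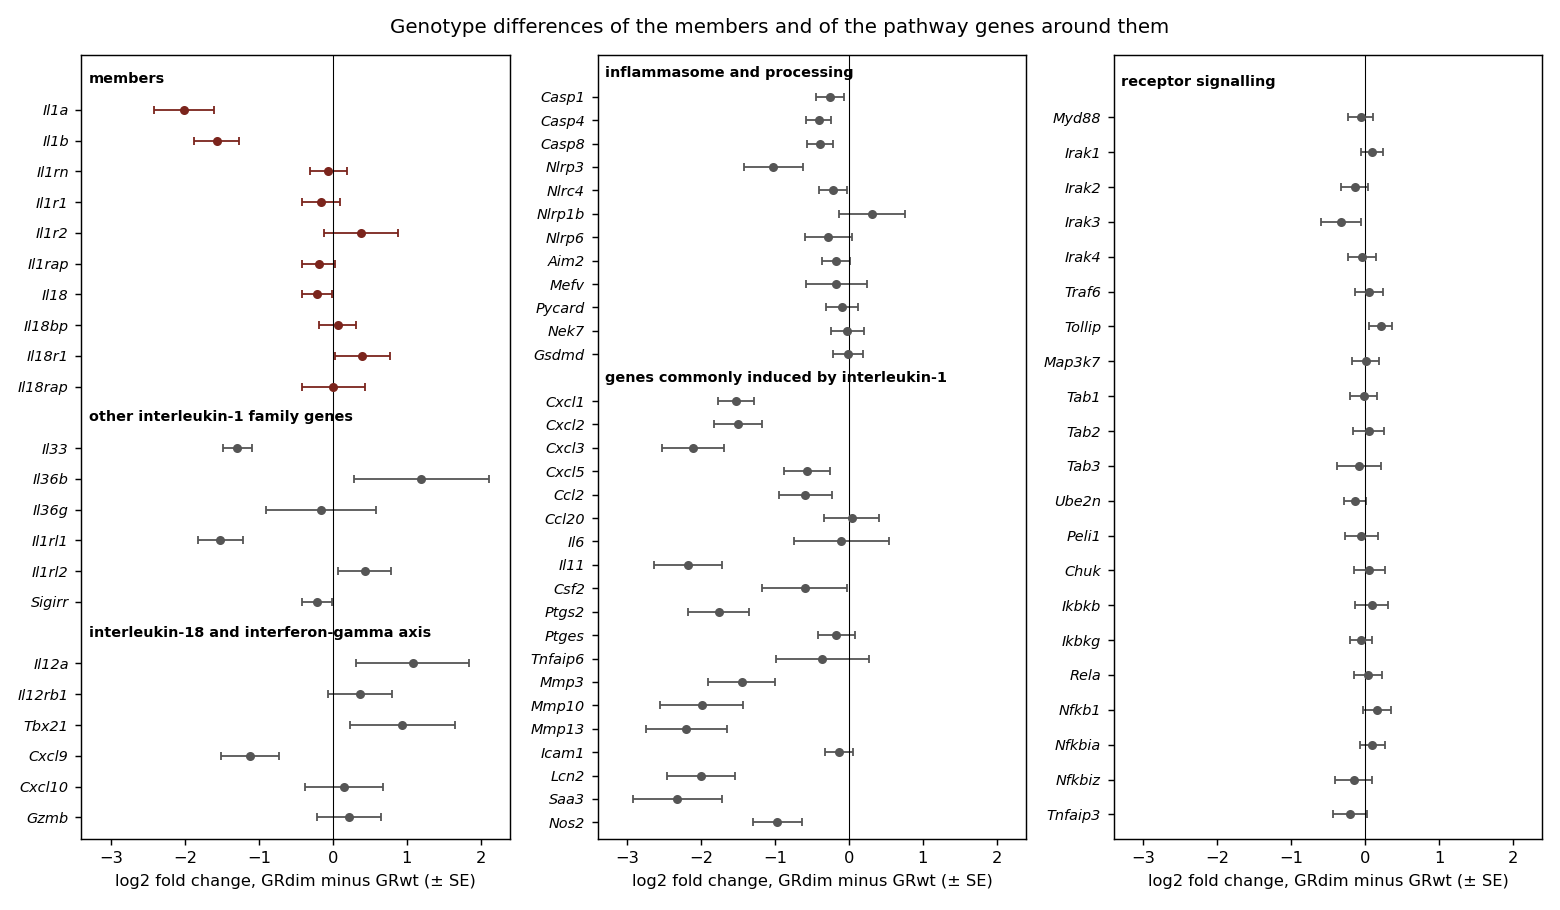
Log2 fold changes, GRdim minus GRwt, with standard errors from edgeR, for the 10 members (dark red) and 64 tested pathway genes (grey), by group. Il1a and Il1b lie at -2.01 and -1.57 and the other members within 0.40 of 0, and the 21 signalling genes lie within 0.33 of 0.

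Markers of cells that can make interleukin-1 were looked at beside the ligands. Neutrophil markers were lower in GRdim tumors in 11 of 12 tested cases, 7 with an unadjusted p under 0.05 and 0 past the adjusted threshold, and their median log2 fold change was -1.45. Over all genes tested 49.4% lay below 0 and 1.09% were lower at an unadjusted p under 0.05. The 13 neutrophil markers with a row summed to 122 to 213 CPM in GRdim and 173 to 319 CPM in GRwt libraries. Ly6g made up 77.1% of that sum and overlapped between genotypes. It stood at 95.8, 120 and 170 CPM in GRdim and 165, 266 and 98.0 CPM in GRwt replicates 1, 2 and 3. Without it, a choice made after the values were seen, the sum was 25.9, 18.6 and 43.7 CPM in GRdim replicates 1, 2 and 3 and 55.0, 52.9 and 74.7 CPM in GRwt replicates 1, 2 and 3, without overlap. S100a9, the next most abundant, stood at 5.62, 2.49 and 11.1 CPM in GRdim and 15.4, 13.5 and 24.5 CPM in GRwt replicates 1, 2 and 3. No marker with a row was at 0 in all libraries. The 14 macrophage and monocyte markers summed to 556 to 793 CPM in GRdim and 624 to 984 CPM in GRwt libraries, with 8 lower, 6 higher and a median of 0. Among them the macrophage lysozyme gene Lyz2 stood at 224 ± 75.8 CPM in GRdim and 243 ± 77.2 CPM in GRwt tumors, and Cd14 at 97.2 ± 14.0 and 145 ± 30.4 CPM. The part of neutrophil or macrophage content in the levels of Il1a and Il1b was not tested. Smooth muscle markers summed to 2558, 1163 and 6236 CPM in GRdim and to 1216 to 1396 CPM in GRwt libraries, and adipocyte markers to 150, 24.3 and 136 CPM in GRdim and 21.8 to 59.4 CPM in GRwt libraries. Both sums were high in GRdim replicates 1 and 3. All 7 tested smooth muscle markers were higher in GRdim (median log2 fold change 1.24), 6 with an unadjusted p under 0.05. Adipocyte markers were higher in 6 of 6 tested cases (median 2.08), 1 at that p. Squamous epithelial markers were higher in 8 of 9 (median 1.28), 5 at that p, beside 1.79% of all genes. None passed the adjusted threshold. The part of these tissues in the levels of the members was not tested. Fibroblast markers summed to 967 to 2427 CPM in GRdim and 1535 to 2178 CPM in GRwt libraries, endothelial markers to 72.2 to 173 and 80.4 to 151 CPM, mast cell markers to 147 to 265 and 121 to 240 CPM, and B cell markers to 36 to 144 and 11.4 to 127 CPM. T and NK cell markers summed to 25.7 to 31.8 CPM in GRdim and 19.1 to 24.2 CPM in GRwt libraries, without overlap. Of the 10 tested, 9 were higher and 1 lower in GRdim, with a median log2 fold change of 0.45. Without overlap 3 were higher, beside 2.98% of all genes. With edgeR 0 of the 10 reached an unadjusted p under 0.05. Cd4, the most abundant, overlapped, at 10.4, 8.36 and 6.28 CPM in GRdim and 7.68, 8.7 and 7.46 CPM in GRwt replicates 1, 2 and 3.

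The genes whose pattern over the 6 libraries was most like that of Il1b were found among 15647 others with a mean of at least 1 CPM, by the root-mean-square difference of log2 CPM centred on each gene's own mean. The closest were Cp (ceruloplasmin, 0.212), Il33 (0.234), Fpr2 (a formyl peptide receptor, 0.265), Serpine2 (a serine protease inhibitor, 0.268) and Cxcl1 (0.277), against a root-mean-square variation of 0.855 in Il1b itself. Cp, whose product carries copper in plasma, stood at 26.7 ± 12.6 CPM in GRdim and 66.6 ± 24.0 CPM in GRwt tumors, and Serpine2 at 24.7 ± 5.34 and 57.1 ± 6.89 CPM (mean ± SD, n = 3 per genotype). Il1a lay at 0.460, at rank 27. The genes closest to Il1rn were Slc45a3, Sp2, Niban2, Lcmt2 and Micall2, at 0.090 to 0.099. The genotype difference was left in these patterns, so the order for Il1b favours genes with a like difference. That difference is the value by which the family was chosen. With 6 libraries such likeness is a description.

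**Figure D5:**
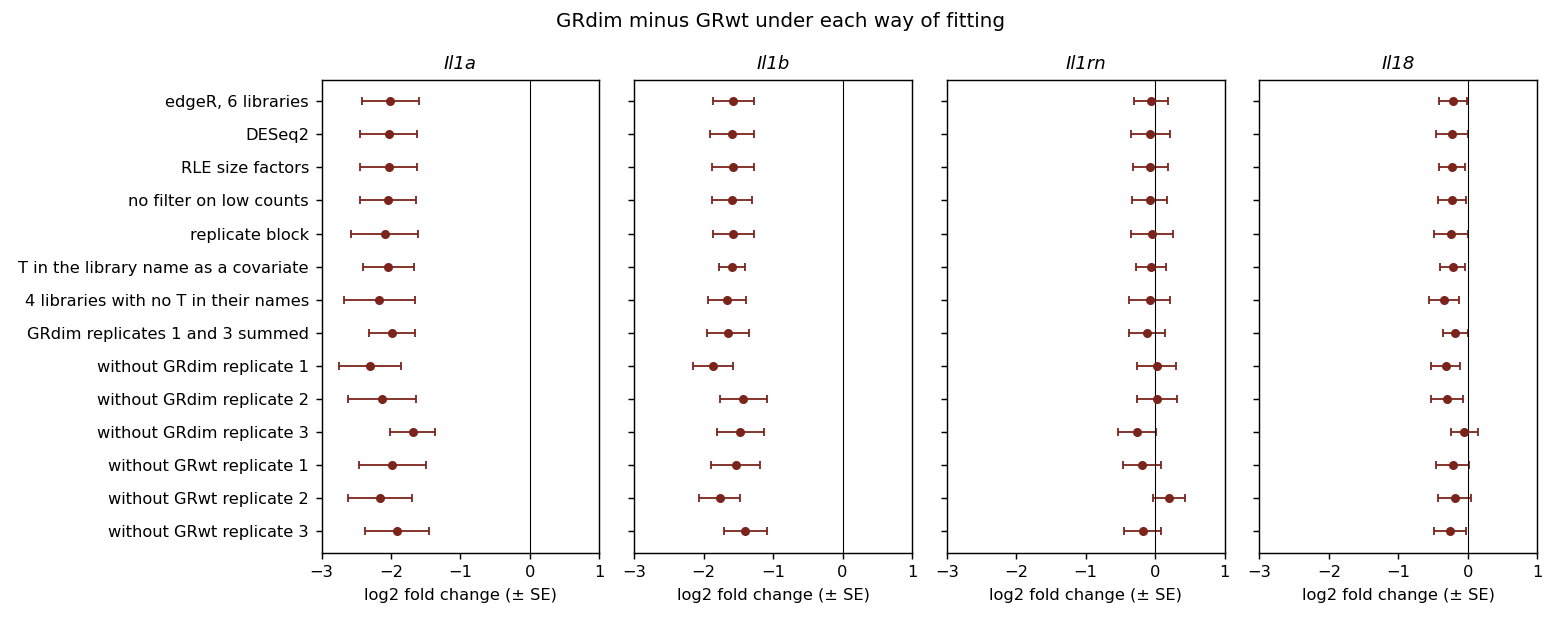
Log2 fold changes (GRdim minus GRwt) with standard errors for Il1a, Il1b, Il1rn and Il18 under each way of fitting, each row being 1 setting. Il1a runs from -2.30 to -1.69 and Il1b from -1.86 to -1.40, while Il1rn lies on both sides of 0, from -0.26 to 0.20. The family was chosen by the difference of Il1a and Il1b, so their constant sign is no support.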

How the data were processed

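Polyadenylated RNA of 6 tumor samples was sequenced from libraries made with a stranded Illumina kit, per the labels. Per the submitters' processing notes the authors used bcl2fastq 2.20.0.422, Trim Galore, FastQC, MultiQC, STAR 2.7.8a, featureCounts of Subread 1.5.0 and DESeq2 1.40.2 with build GRCm39. The authors' deposited values are raw read counts per gene. The annotation release, strand setting and gene filter are not given in the sources used here. Columns were matched to samples by library name.

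The whole table was fitted in R 4.3.3 with edgeR 4.0.16 and its quasi-likelihood test (TMM scaling, default filter on low counts by genotype, robust dispersion), with Benjamini-Hochberg adjusted p under 0.05 as the threshold. The standard error is the log2 fold change divided by the square root of F. The common biological coefficient of variation was 0.33. Log2 CPM used a prior count of 2. The fit was tested on simulated data. The alternatives were DESeq2 1.42.0, relative log expression factors, no filter, the replicate block, the T as a covariate, the 4 libraries without a T, GRdim replicates 1 and 3 summed, and each library left out. Exact 95% intervals cover counting error only.

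The members and lists were chosen with earlier results of these data known. All members were named. Of each pathway list the genes past the threshold, or else up to 4 of smallest p, were named. Of each marker list the sum and up to 2 of the most abundant genes were given, and the 5 genes most like Il1b and Il1rn were named. Exon lengths came from GENCODE M21 and promoters, which matched all 10 members in 15 windows, from RefSeq, both on GRCm38. No coordinates were converted between builds.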

Additional observations from a re-analysis of the deposited data

How the results depend on the processing

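edgeR called 0 genes with all 6 libraries and under each of its 12 alternatives, and 541 genes had an unadjusted p under 0.05. DESeq2 called 23 genes as lower and 10 as higher in GRdim, among them 2 members and 11 pathway genes, in a test of 17442 genes. Il1a and Il1b were below 0 in all 13 alternatives (-2.30 to -1.69 and -1.86 to -1.40), as were Il1rap and Il18. For Il1a and Il1b the genotypes do not overlap, and the family was chosen by this difference. Leaving out a library could therefore not turn their sign, and nothing is read from it. Il1rn, Il1r1, Il1r2, Il18rap and Il18bp each changed sign in at least 1. With a library left out, the median of the members ran from -0.28 to 0 and that of the genes induced by interleukin-1 from -1.40 to -1.07. With the replicate number as a block, Il1a and Il1b had -2.09 and -1.57, and no call changed. Libraries of the same number did not deviate together (correlations of -0.39, 0.03 and -0.432 for replicates 1, 2 and 3). The libraries with a T in their names, GRdim replicate 1 and GRwt replicate 3, had a correlation of 0.45. Deviations from a mean of 3 libraries depend on each other, so these values cannot settle whether the numbers pair the samples. Among the members, depth limits Il1a, Il1r2 and both interleukin-18 receptor genes, with as few as 31 reads in a library.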

Other observations

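Of 19 tested genes whose start lies within 500 kb of Il1a or Il1b, 6 lay below 0 and 13 above 0, with a median log2 fold change of 0.03. With edgeR 0 were lower and 1 was higher at an unadjusted p under 0.05, beside 1.09% and 1.79% of all genes. That gene was Zc3h6, named after its value was seen. Without overlap between genotypes 0 were lower and 2 higher, beside 3.57% and 2.98% of all genes. Around the receptor genes of chromosome 1, from Il1r2 to Il18rap (478 kb), 3 of 9 tested neighbours were lower and 6 higher, and Il1rl1 was the only one lower at an unadjusted p under 0.05.

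Il1a and Il1b each overlap a noncoding gene on the opposite strand. Gm14023, which overlaps Il1a by 8217 bases of the gene spans, stood at 0.957 ± 0.375 CPM in GRdim and 0.779 ± 0.190 CPM in GRwt tumors (mean ± SD, n = 3 per genotype), with a log2 fold change of 0.29 and a standard error of 0.48. Il1bos, which overlaps the Il1b span by 1243 bases, had between 2 and 16 reads a library and was not tested. The strand setting of the counting is not given, so reads of overlapping genes on opposite strands may not be separated. Il18 is overlapped on the opposite strand by Tex12 over 4507 bases and by Bco2 over 355 bases. Tex12 stood at 1.28 ± 0.128 CPM in GRdim and 1.38 ± 0.135 CPM in GRwt tumors, and Bco2 at 10.3 ± 0.987 and 9.32 ± 1.22 CPM. Numa1, which overlaps Il18bp by 80 bases on the opposite strand, stood at 217 ± 23.9 CPM in GRdim and 196 ± 35.9 CPM in GRwt tumors.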
